A study of Homo sapiens with 6 samples.

Results

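The genes described here encode the subunits of the PPP family of serine/threonine protein phosphatases, and 79 of the 19777 genes tested belong to it. Members were every gene whose annotation symbol begins with PPP, a digit from 1 to 6 and then C for a catalytic or R for a regulatory subunit, measured by at least 1 probe set that the annotation ties to a single gene. They comprise 11 catalytic subunits, 63 genes named as regulatory subunits and 5 RNA genes named after a neighbouring or opposite-strand subunit gene. One of the regulatory symbols, PPP4R1L, is a transcribed pseudogene in RefSeq. The cells were MDA-MB-231, a triple-negative human breast cancer line that is long established, profiled after transfection with a negative control siRNA (3 arrays) or with an siRNA against SDC1 (3 arrays). SDC1 encodes syndecan-1, a heparan sulfate proteoglycan of the cell surface. The series design describes the replicates of each group as independent, and all 6 arrays share the same unmodified parental line. The sources used here name neither the siRNA sequence nor the time after transfection.

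A PPP catalytic subunit rarely acts alone. PP1 binds 1 of many regulatory proteins that send it to glycogen, myosin, chromatin or the ribosome machinery, or that block its active site, while PP2A is built from a scaffold, a catalytic subunit and an exchangeable B subunit. Calcineurin pairs a calmodulin-binding catalytic subunit with a calcium-binding B subunit, and PP4 and PP6 form their own complexes with dedicated regulatory subunits, so the set of regulatory subunits decides which phosphoproteins are reached.

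Values are deposited log2 expression values in which each probe set has a median of 0 over the 6 arrays, so a value is a difference from that median and not a level. A log2 fold change is the mean of the 3 SDC1 siRNA arrays minus the mean of the 3 control siRNA arrays, given with its standard error (SE). A gene is said to have risen or fallen where limma's moderated test gave a Benjamini-Hochberg adjusted p under 0.05 over all genes tested. Members were chosen by symbol, but the family itself was selected on fold changes of this same contrast, so its counts and p-values describe the members and serve as no independent test. Levels of different genes cannot be compared. A coarse brightness class (log2 level 2 to 4, 4 to 8 or 8 to 16), read from the rounding of the deposited numbers, is the only sign of how strongly a probe set shone.

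SDC1 itself stood at 1.13, 1.32 and 1.09 on the control arrays and at -1.14, -1.16 and -1.43 on the SDC1 siRNA arrays. Its log2 fold change was -2.42 (SE 0.097, adjusted p = 2.18e-06), which leaves 18.7% of control. The poly-A spike-in RNAs, 15 probe sets added before labelling, parted the arrays into control 1 with SDC1 siRNA 1 and 2 (means from 0.30 to 0.52) and control 2 and 3 with SDC1 siRNA 3 (means from -0.36 to -0.32). These spike-in sets are not named as batches in the labels. SDC1 differed by -2.28 within the first and by -2.63 within the second. Of 6 genes typical of this mesenchymal line, 6 were in the brightest class. So were 5 of 6 genes listed here as absent from such a line and 1 of 4 measured genes of other cell types. The class therefore could not check the line's identity.

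Across the family 24 of 79 genes passed the threshold (30.4%), against 28.1% of all genes tested. Of these, 3 rose (3.80%, against 13.0% of all genes) and 21 fell (26.6%, against 15.1%). The 3 that rose were PPP1CC, the gamma catalytic subunit of PP1, PPP1R14B, an inhibitor of PP1 that acts on the myosin phosphatase, and PPP2R3A, a B'' subunit of PP2A. The family median was -0.08 on the log2 scale and the median over all genes 0.00. The sizes were small: the median of the absolute log2 fold changes was 0.15 over the family and 0.13 over all genes, and 4 members both passed the threshold and differed by at least 1.5-fold, where 6.98% of all genes did. The 2 groups of arrays did not overlap in 37 members (46.8%), against 41.7% of all genes and 57.1% of all genes in the brightest class.

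The share called was higher in brighter classes. In the brightest class 18 of 50 members passed (36.0%, against 40.7% of all genes of that class), 3 of them higher (against 17.9%) and 15 lower (against 22.8%). In the middle class 6 of 23 passed (26.1%, against 19.7%), 0 of them higher (against 9.98%) and 6 lower (against 9.72%). In the dimmest class 0 of 6 passed by limma's test (0 at an unadjusted p under 0.05), where 5.15% of all genes of that class did, 3.23% higher and 1.92% lower. The sign was the same in both spike-in sets of arrays for 66 of the 79 members (83.5%, against 70.9% of all genes). It was the same for all 5551 genes called (100%), so an equal sign adds no support to a called member. Nearest to the threshold on its inner side were PPP4R2 (adjusted p = 0.043), PPP1R3D (0.0408) and PPP4R3A (0.0347). Nearest on the outer side were PPP1R15B (-0.25, adjusted p = 0.0576), PPP1R36 (0.27, adjusted p = 0.0602), PPP1R37 (-0.17, adjusted p = 0.0826), PPP2R1A (-0.17, adjusted p = 0.0838) and PPP2R2D (0.16, adjusted p = 0.089).

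**Figure D1:**
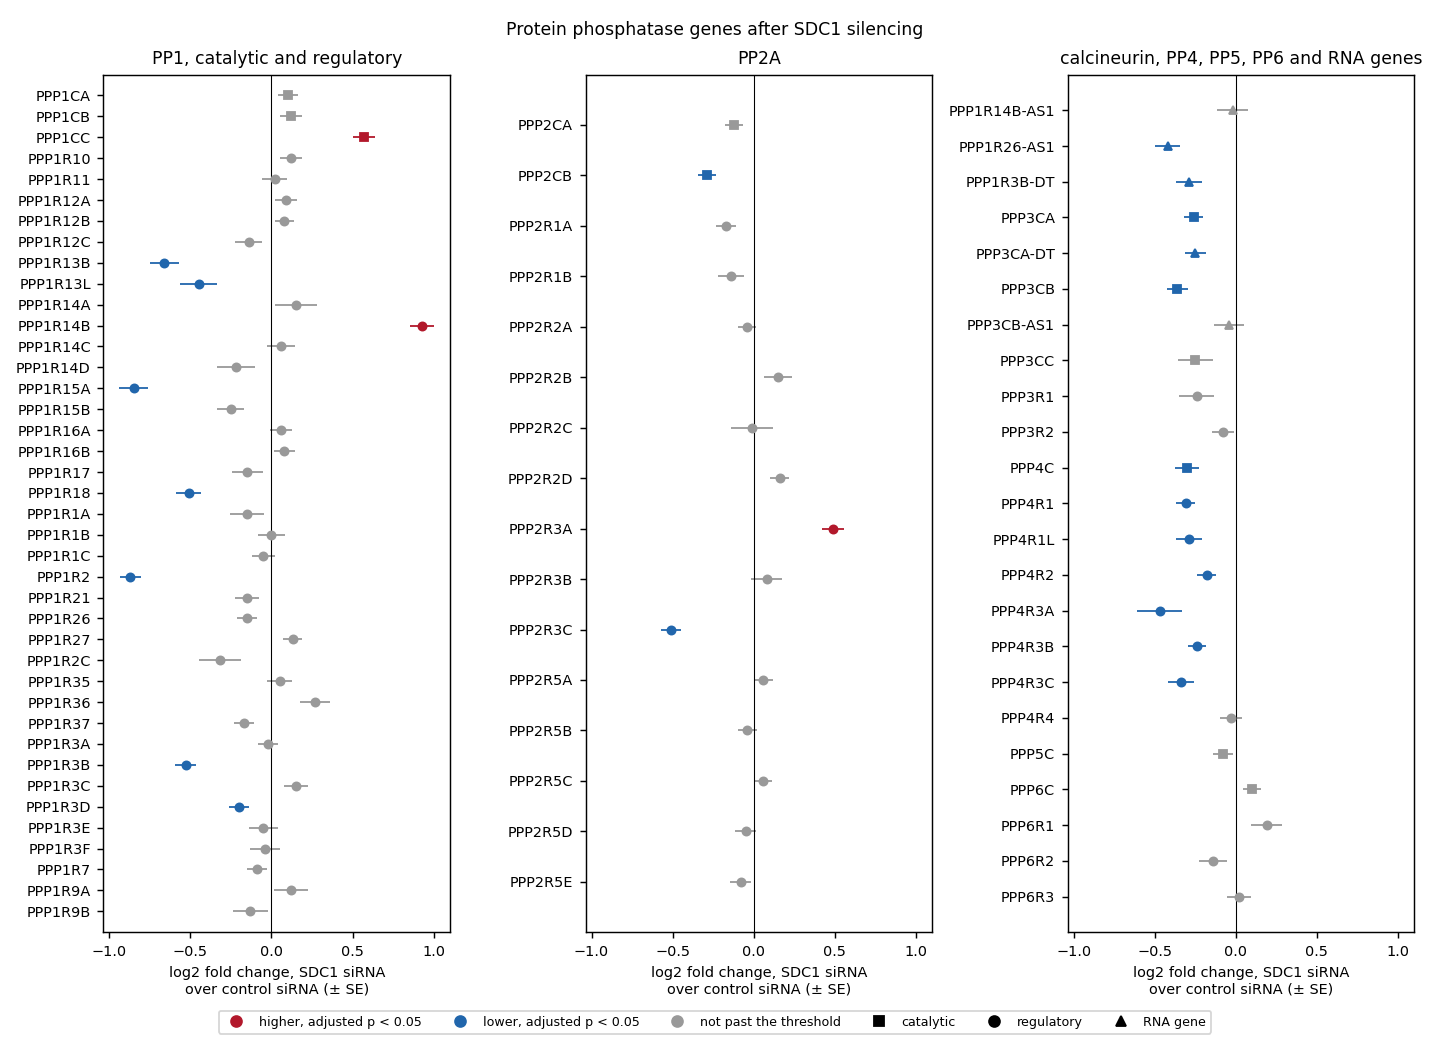
Log2 fold change of each of the 79 family genes, SDC1 siRNA over control siRNA, on the horizontal axis, with bars of ± 1 SE from limma over 3 and 3 arrays. Squares are catalytic subunits, circles regulatory subunits and triangles RNA genes. Red points rose and blue points fell at an adjusted p under 0.05. The values run from -0.87 for PPP1R2 to 0.93 for PPP1R14B, and 7 of the 8 PP4 genes are blue.

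Catalytic subunits were called in 5 of 11 cases, 1 higher and 4 lower, with a median of -0.12. All 11 were in the brightest class, in which 40.7% of all genes were called, 17.9% higher and 22.8% lower. PP1, which has 3 catalytic genes, had all of them above 0, as were 10070 of all 19777 genes tested. PPP1CC stood at -0.32, -0.35 and -0.20 on the control arrays and at 0.29, 0.20 and 0.36 on the SDC1 siRNA arrays, so every SDC1 siRNA array was above every control array. It rose 1.49-fold (0.57, SE 0.070, adjusted p = 4.27e-04), from -0.29 ± 0.08 to 0.28 ± 0.08 (SD, n = 3), and by 0.56 and 0.63 within the spike-in sets.

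The other PP1 catalytic genes, which encode the alpha and beta isoforms of the same enzyme, did not pass. PPP1CA was at -0.11, 0.00 and -0.03 in controls and at 0.05, 0.00 and 0.10 after SDC1 siRNA (0.10, SE 0.062, adjusted p = 0.311). PPP1CB was at -0.06, -0.11 and 0.00 in controls and at 0.03, -0.01 and 0.17 after SDC1 siRNA (0.12, SE 0.070, adjusted p = 0.259). In both genes the groups overlapped.

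The PP2A catalytic subunit is encoded by a pair of genes with almost the same protein. PPP2CB was at 0.15, 0.14 and 0.12 in controls and at -0.16, -0.16 and -0.12 after SDC1 siRNA. It fell to 81.9% of control (-0.29, SE 0.055, adjusted p = 0.00449). PPP2CA was at 0.03, 0.06 and 0.07 in controls and at -0.12, -0.05 and -0.03 after SDC1 siRNA; its groups did not overlap either, but its change of -0.12 (SE 0.057) did not pass (adjusted p = 0.18). The value of PPP2CB rested on 1 probe set; with a dim cross-hybridising one averaged in, it was -0.20 (adjusted p = 0.0993).

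The calcineurin catalytic genes encode the alpha, beta and gamma isoforms of the calcium-activated phosphatase that dephosphorylates NFAT transcription factors. PPP3CA was at 0.11, 0.11 and 0.14 in controls and at -0.10, -0.19 and -0.13 after SDC1 siRNA, a fall to 83.5% of control (-0.26, SE 0.057, adjusted p = 0.00916). PPP3CB was at 0.21, 0.16 and 0.12 in controls and at -0.18, -0.13 and -0.26 after SDC1 siRNA, a fall to 78.1% of control (-0.36, SE 0.062, adjusted p = 0.00289). In both genes all SDC1 siRNA arrays lay below all control arrays. PPP3CC was at -0.02, 0.32 and 0.11 in controls and at -0.09, 0.02 and -0.27 after SDC1 siRNA, so the groups overlapped (-0.25, SE 0.106, adjusted p = 0.12). Its difference was -0.01 in the first spike-in set and -0.49 in the second. Averaged over all its probe sets, PPP3CC passed the threshold (-0.26, adjusted p = 0.00829).

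The remaining catalytic genes belong to single-isoform enzymes. PPP5C, a phosphatase bound to the HSP90 chaperone, was at 0.01, 0.14 and 0.02 in controls and at -0.03, -0.01 and -0.02 after SDC1 siRNA (-0.08, SE 0.061, adjusted p = 0.394). Averaged over all its probe sets it was 0.09 (adjusted p = 0.311), so its direction was not settled. PPP6C was at -0.05, -0.05 and -0.07 in controls and at 0.01, 0.02 and 0.09 after SDC1 siRNA (0.10, SE 0.057, adjusted p = 0.257). The groups did not overlap in either gene, by gaps of a few hundredths, and neither passed. PPP4C is described with its complex.

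**Figure D2:**
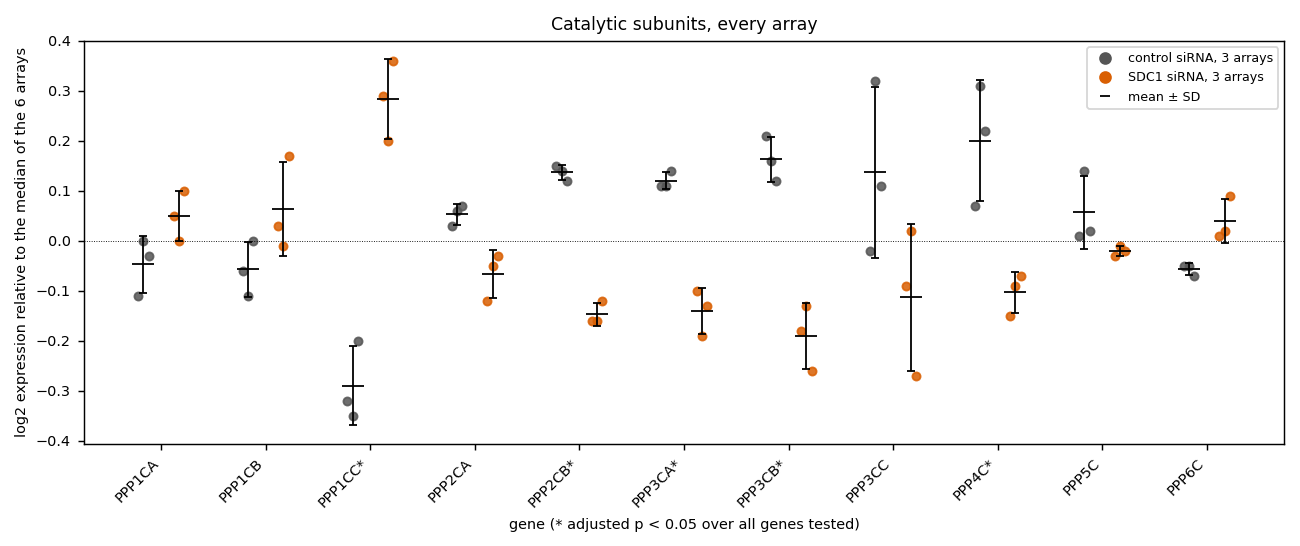
Expression of the 11 catalytic subunit genes on every array, as log2 relative to the median of the 6 arrays (vertical axis). Grey points are the 3 control siRNA arrays, orange points the 3 SDC1 siRNA arrays, and black bars the mean ± SD. The orange points of PPP1CC lie between 0.20 and 0.36, above its grey points, and those of PPP3CB between -0.26 and -0.13, below its grey points.

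Of the 63 regulatory genes 16 were called (25.4%, against 28.1% of all genes). Of these, 2 were higher (3.17%, against 13.0%) and 14 lower (22.2%, against 15.1%). The regulatory median was -0.05, against -0.12 for the catalytic genes. All 11 catalytic genes were bright. Among the 39 regulatory genes of the brightest class 13 were called (33.3%, against 40.7% of all genes of that class), with a median of -0.08. Of these, 2 were higher (5.13%, against 17.9%) and 11 lower (28.2%, against 22.8%). Within the spike-in sets the catalytic medians were -0.04 and -0.10 and the regulatory medians -0.03 and -0.09. The groups of arrays did not overlap in 8 of 11 catalytic genes (72.7%, against 57.1% of all genes in the brightest class, where they all lie) and in 26 of 63 regulatory genes (41.3%, against 41.7% of all genes). The difference between the classes of subunit was not tested.

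**Figure D3:**
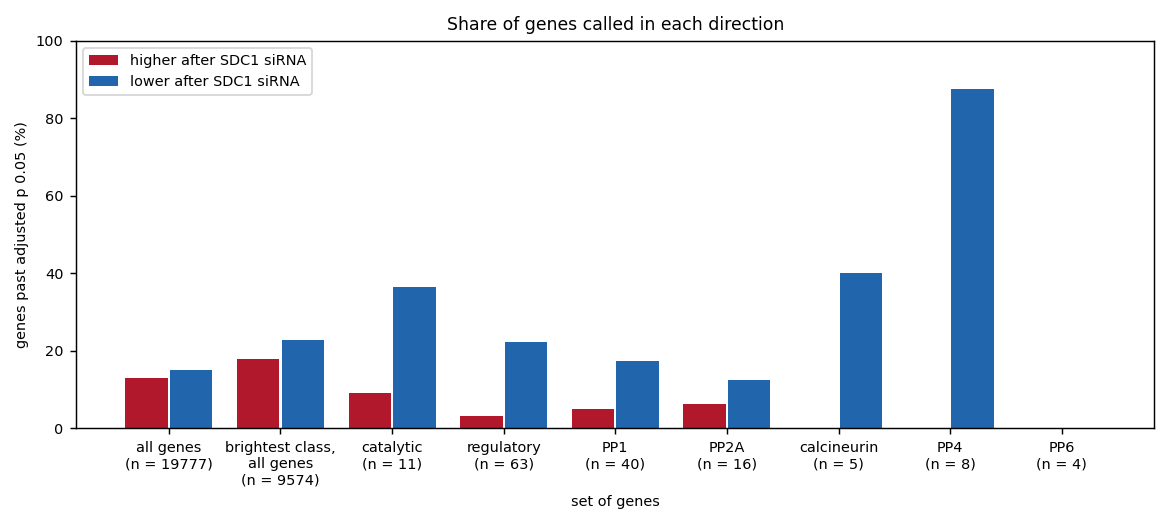
Share of genes past adjusted p 0.05 (vertical axis, percent) that were higher (red) or lower (blue) after SDC1 siRNA, for all genes tested, for all genes of the brightest class and for sets of subunits, with the number of genes under each set. Lower genes make up 87.5% of the PP4 set, which counts the pseudogene PPP4R1L, and 15.1% of all genes. The PP6 set has none called.

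PP4 was the enzyme with the highest share of genes called. Its catalytic subunit acts with regulatory subunits R2, R3A and R3B on DNA damage and chromatin proteins, or with R1 or R4 in separate complexes. Of its 8 genes 7 fell and 0 rose (87.5% lower, against 15.1% of all genes and 22.8% of the brightest class), with a median of -0.30. The medians within the spike-in sets were -0.30 and -0.23. The drops were all under 1.5-fold. The 8 genes include the pseudogene PPP4R1L. The calls of PPP4C, PPP4R2, PPP4R3A and PPP4R1L were lost without single arrays, and the direction of PPP4R3B rested on its probe sets, as given below.

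Because 7 of the 8 PP4 genes fell, the 150 bases before their annotated starts are shown for the 6 of them with a RefSeq window, from RefSeq on GRCh38.p14, each read 5′ to 3′ along the strand of its gene. Capitals mark matches, on either strand, to the GC box (GGGCGG), to the core of the cyclic AMP response element, or CRE (TGACG), to the CCAAT box (CCAAT, in 23.5% of all promoters) and to an ETS site (CCGGAAG, in 6.85%). The TATA box (TATAAA, 6.71%), the full CRE (TGACGTCA, 1.40%) and the E-box (CACGTG, 4.57%) were also searched on both strands and had no match in these windows.
PPP4C, chr16:30075844-30075993, plus strand: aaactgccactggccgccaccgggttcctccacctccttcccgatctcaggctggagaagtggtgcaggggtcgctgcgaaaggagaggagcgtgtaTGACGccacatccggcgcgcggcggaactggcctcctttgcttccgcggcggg
PPP4R1, chr18:9614560-9614709, minus strand: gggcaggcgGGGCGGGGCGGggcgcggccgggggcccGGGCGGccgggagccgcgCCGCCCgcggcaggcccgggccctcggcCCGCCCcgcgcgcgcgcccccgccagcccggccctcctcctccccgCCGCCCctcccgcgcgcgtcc
PPP4R2, chr3:72996661-72996810, plus strand: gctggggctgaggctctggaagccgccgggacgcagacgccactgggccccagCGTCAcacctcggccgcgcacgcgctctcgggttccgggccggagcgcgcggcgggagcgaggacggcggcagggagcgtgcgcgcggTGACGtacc
PPP4R3A, chr14:91510555-91510704, minus strand: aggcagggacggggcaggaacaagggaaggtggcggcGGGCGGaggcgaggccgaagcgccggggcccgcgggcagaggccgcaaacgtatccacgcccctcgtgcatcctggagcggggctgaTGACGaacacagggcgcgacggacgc
PPP4R3B, chr2:55617623-55617772, minus strand: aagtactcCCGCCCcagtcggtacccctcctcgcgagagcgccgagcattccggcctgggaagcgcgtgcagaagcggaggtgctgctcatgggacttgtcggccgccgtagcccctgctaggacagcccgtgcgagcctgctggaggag
PPP4R3C, chrX:27463342-27463491, minus strand: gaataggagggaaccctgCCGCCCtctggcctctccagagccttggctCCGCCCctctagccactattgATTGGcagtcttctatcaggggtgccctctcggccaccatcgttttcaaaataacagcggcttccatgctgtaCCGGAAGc
No motif searched was in every window. PPP4R1 held 6 GC boxes, PPP4R3C 2 with 1 CCAAT box and 1 ETS site, and PPP4R3A and PPP4R3B 1 GC box each, while PPP4C held 1 CRE core, PPP4R2 held 2 and PPP4R3A held 1. Of 7 PP4 genes with a RefSeq window 5 had a GC box (71.4%), as had 36 of 61 family members (59.0%) and 36.8% of the 35116 promoters in the table. These 5 include PPP4R4, whose window is not shown, which was not called and which held 6 GC boxes. The CRE core was in 3 of the 7 PP4 windows (42.9%), in 14 of 61 family members (23.0%) and in 15.4% of all promoters. Family members had a single window per gene, while the shares of all promoters counted every promoter in the table, so the sets are not alike. A match of letters describes the window and shows no binding.

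PPP4C, the PP4 catalytic subunit, was at 0.07, 0.31 and 0.22 on the control arrays and at -0.15, -0.09 and -0.07 on the SDC1 siRNA arrays. It fell to 81% of control (-0.30, SE 0.075, adjusted p = 0.016), and the groups did not overlap. The call rested on single arrays: without control 2 it was -0.25 (adjusted p = 0.0546), and without SDC1 siRNA 1 it was -0.28 (adjusted p = 0.0595). PPP4R1, a scaffold-like subunit, was at 0.19, 0.10 and 0.17 in controls and at -0.10, -0.19 and -0.18 after SDC1 siRNA (-0.31, SE 0.059, adjusted p = 0.00462). It passed under each of 13 alternative settings. PPP4R3C, an R3 paralogue, was at 0.12, 0.15 and 0.10 in controls and at -0.38, -0.17 and -0.10 after SDC1 siRNA (-0.34, SE 0.080, adjusted p = 0.0126), with no overlap and calls in each of the 13.

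The calls of the other PP4 regulatory genes were less firm. PPP4R3A, a core R3 subunit, was at -0.01, 0.19 and 0.36 in controls and at -0.40, -0.48 and 0.01 after SDC1 siRNA. It fell to 72.2% of control (-0.47, SE 0.139, adjusted p = 0.0347), although SDC1 siRNA 3 lay above control 1. Its call was lost without control 2 (-0.47, adjusted p = 0.0816), control 3 (-0.38, 0.110), SDC1 siRNA 1 (-0.42, 0.107) or SDC1 siRNA 2 (-0.37, 0.111). PPP4R2, which links R3 to the catalytic subunit, was at 0.10, 0.04 and 0.08 in controls and at -0.06, -0.13 and -0.13 after SDC1 siRNA. The groups of PPP4R2 did not overlap, but the change was -0.18 (SE 0.057, adjusted p = 0.043), and leaving out any 1 array lost the call, with values from -0.21 to -0.17 and adjusted p from 0.069 to 0.125. Averaged over all probe sets it was -0.14 (adjusted p = 0.15), and after quantile normalization -0.18 (adjusted p = 0.0505). Its brightest probe sets read -0.38 (adjusted p = 0.00984) and 0.01 (adjusted p = 0.951).

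PPP4R3B, the second core R3 subunit, was at 0.15, 0.10 and 0.12 in controls and at -0.11, -0.12 and -0.11 after SDC1 siRNA, a difference of -0.24 (SE 0.055, adjusted p = 0.0114) that was near equal on all arrays. Its direction rested on which probe sets were used: averaged over all of them it was 0.10 (adjusted p = 0.223). The pseudogene PPP4R1L fell by 0.29 (SE 0.080, adjusted p = 0.0273); without control 1 it was -0.21 (adjusted p = 0.0734), without control 2 it was -0.30 (0.055), without SDC1 siRNA 1 it was -0.26 (0.0929), and without SDC1 siRNA 2 it was -0.30 (0.065). PPP4R4, a cytosolic partner and the only PP4 gene in the dimmest class, was at -0.03 (adjusted p = 0.794), and at 0.03 (adjusted p = 0.829) without SDC1 siRNA 2.

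The 37 PP1 regulatory genes gave 1 rise (2.70%, against 13.0% of all genes) and 7 falls (18.9%, against 15.1%), with a median of -0.05, and held all 4 members that passed with at least a 1.5-fold difference. A pair of these are inhibitors that went in opposite directions. PPP1R14B, an inhibitor of the CPI-17 family that blocks PP1 when phosphorylated, was at -0.54, -0.37 and -0.59 in controls and at 0.37, 0.49 and 0.43 after SDC1 siRNA. It rose 1.91-fold (0.93, SE 0.074, adjusted p = 4.65e-05), from -0.50 ± 0.11 to 0.43 ± 0.06 (SD, n = 3). This gene had 1 probe set, of the type marked as able to hybridise to other transcripts. PPP1R2, inhibitor-2, which binds PP1 and also helps it fold, was at 0.49, 0.38 and 0.43 in controls and at -0.41, -0.53 and -0.38 after SDC1 siRNA. It fell to 54.5% of control (-0.87, SE 0.066, adjusted p = 3.73e-05), from 0.43 ± 0.05 to -0.44 ± 0.08 (SD, n = 3).

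In both genes the groups were far apart. Within the spike-in sets the differences were 0.98 and 0.91 for PPP1R14B and -0.96 and -0.78 for PPP1R2. The size for PPP1R2 came mainly from 1 of its probe sets, at -1.52 (adjusted p = 2.59e-05), while the other bright one was at -0.23 (adjusted p = 0.0577). Averaged over all its probe sets PPP1R2 was -0.41 (adjusted p = 0.00102), and with the brightness class read from all 6 arrays it was -0.23 (adjusted p = 0.0235). The other 7 genes grouped here as inhibitors ran from -0.22 for PPP1R14D to 0.15 for PPP1R14A, and none passed on all 6 arrays. PPP1R2C and PPP1R17 were not in this group and are counted with the remaining PP1 regulatory genes below. Without control 2 PPP1R14D was called (-0.35, adjusted p = 0.02).

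PPP1R15A, also known as GADD34, brings PP1 to the translation factor eIF2alpha and is induced by stress, while PPP1R15B does so without stress. PPP1R15A was at 0.29, 0.51 and 0.45 in controls and at -0.56, -0.45 and -0.29 after SDC1 siRNA, far apart. It fell to 55.5% of control (-0.85, SE 0.089, adjusted p = 1.96e-04), from 0.42 ± 0.11 to -0.43 ± 0.14 (SD, n = 3), by 0.80 and 0.77 within the spike-in sets. Both of its probe sets were lower, at -0.90 and -0.80. PPP1R15B was at 0.15, 0.02 and 0.17 in controls and at -0.11, -0.29 and -0.02 after SDC1 siRNA, with no overlap, and missed the threshold at -0.25 (SE 0.083, adjusted p = 0.0576). It passed without SDC1 siRNA 3 (-0.31, adjusted p = 0.0366), without the dimmest class (adjusted p = 0.0485) and with a robust prior (adjusted p = 0.0387). With the replicate number as a block it passed too (-0.25, adjusted p = 0.0266). The window before the PPP1R15A start is shown for its full CRE (TGACGTCA) and TATA box (TATAAA), both in capitals.
PPP1R15A, chr19:48872271-48872420, plus strand: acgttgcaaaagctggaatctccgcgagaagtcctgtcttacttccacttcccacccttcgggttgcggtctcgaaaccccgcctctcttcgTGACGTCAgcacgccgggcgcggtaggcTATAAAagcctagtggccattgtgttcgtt
The full CRE contains the core on both strands. It was in 3 of 61 family members (4.92%) and in 1.40% of all promoters, and TATAAA was in 4 of 61 (6.56%) and in 6.71% of all promoters. As above, members had a single window per gene and the shares of all promoters counted every promoter.

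The ASPP proteins bind PP1 and p53, and both ASPP genes that carry a PPP1R symbol fell, where 15.1% of all genes did. ASPP genes under other symbols were not read. PPP1R13B (ASPP1) was at 0.55, 0.38 and 0.23 in controls and at -0.24, -0.36 and -0.23 after SDC1 siRNA, without overlap. It fell to 63.2% of control (-0.66, SE 0.088, adjusted p = 6.82e-04), from 0.39 ± 0.16 to -0.28 ± 0.07 (SD, n = 3). PPP1R13L (iASPP), the inhibitory member, was at 0.34, 0.37 and 0.03 in controls and at -0.21, -0.03 and -0.35 after SDC1 siRNA, with the lowest control just above the highest SDC1 siRNA array. It fell to 73.4% of control (-0.45, SE 0.112, adjusted p = 0.0169). Its call was lost without control 1 (-0.40, adjusted p = 0.059), control 2 (-0.39, 0.0588) or SDC1 siRNA 3 (-0.37, 0.0602).

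Among 6 glycogen-targeting subunits 2 fell (33.3%, against 15.1% of all genes). PPP1R3B was at 0.25, 0.35 and 0.23 in controls and at -0.17, -0.28 and -0.32 after SDC1 siRNA, a fall to 69.2% of control (-0.53, SE 0.067, adjusted p = 5.21e-04). PPP1R3D was at 0.20, 0.06 and 0.09 in controls and at -0.08, -0.06 and -0.13 after SDC1 siRNA (-0.20, SE 0.063, adjusted p = 0.0408). The PPP1R3D call was lost on leaving out any 1 array, with values from -0.23 to -0.16 and adjusted p from 0.0527 to 0.125. It was -0.10 averaged over all probe sets (adjusted p = 0.384) and with the brightness class from all 6 arrays (adjusted p = 0.392). The other 4 glycogen genes lay between -0.05 and 0.15.

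PPP1R18, phostensin, which targets PP1 to actin filaments, was at 0.30, 0.30 and 0.15 in controls and at -0.26, -0.15 and -0.37 after SDC1 siRNA. It fell to 70.1% of control (-0.51, SE 0.077, adjusted p = 0.00131). The related scaffolds neurabin (PPP1R9A, 0.12) and spinophilin (PPP1R9B, -0.13) did not pass. Nor did any of the 5 myosin-targeting subunits, which ran from -0.14 for PPP1R12C to 0.09 for PPP1R12A, with 0 at an unadjusted p under 0.05 by limma. PPP1R7 (-0.09), a mitotic regulator, and PPP1R10 (0.12), the nuclear subunit PNUTS, stayed below the threshold too. The remaining 8 PP1 regulatory genes lay between -0.32 for PPP1R2C and 0.27 for PPP1R36, and limma called 0 of them, with 4 at an unadjusted p under 0.05. PPP1R37 was called with the spike-in set as a block (-0.20, adjusted p = 0.0488). Without control 1 PPP1R2C (-0.48, adjusted p = 0.00599) and PPP1R36 (0.37, adjusted p = 0.00946) were called. PPP1R36 was also called with the replicate number as a block (0.27, adjusted p = 0.0336).

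**Figure D4:**
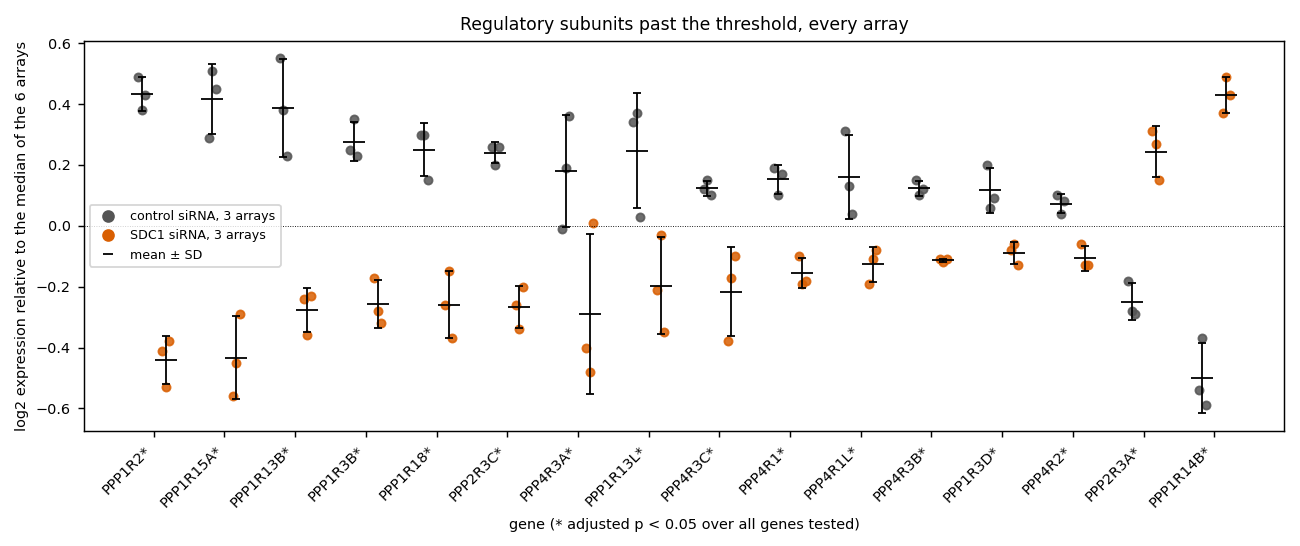
Expression of the 16 regulatory genes past the threshold on every array, as log2 relative to the median of the 6 arrays (vertical axis), ordered from the largest fall to the largest rise. Grey points are control siRNA, orange points SDC1 siRNA and black bars the mean ± SD of 3 arrays. PPP4R3A is the gene whose groups overlap; PPP1R14B and PPP2R3A are the genes with orange above grey.

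PP2A regulatory genes changed in 2 of 14 cases (14.3%, against 28.1% of all genes and 40.7% of the brightest class, which holds 13 of the 14), with a median of -0.02. The B'' subunits, which bind calcium, moved apart. PPP2R3A was at -0.18, -0.28 and -0.29 in controls and at 0.31, 0.27 and 0.15 after SDC1 siRNA, and rose 1.4-fold (0.49, SE 0.068, adjusted p = 8.38e-04), with all 3 of its probe sets called higher. PPP2R3C was at 0.26, 0.20 and 0.26 in controls and at -0.26, -0.34 and -0.20 after SDC1 siRNA, and fell to 70.3% of control (-0.51, SE 0.062, adjusted p = 4.14e-04). Neither gene's groups overlapped. Averaged over all 3 of its probe sets PPP2R3C was -0.22 (adjusted p = 0.0436). PPP2R3B did not pass (0.08, adjusted p = 0.585), and averaged over all its probe sets it was called lower (-0.27, adjusted p = 0.0137).

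The rest of the PP2A subunits did not pass, although PPP2R1B (-0.26, adjusted p = 0.0197) and PPP2R2D (0.28, adjusted p = 0.00557) did when all probe sets of a gene were averaged. The scaffolds PPP2R1A and PPP2R1B, on which the trimer is assembled, were at -0.17 and -0.14, the first of them at an unadjusted p under 0.05. The 4 B55 genes, whose proteins act in mitotic exit and on the cytoskeleton, lay between -0.04 for PPP2R2A and 0.16 for PPP2R2D, with 1 of them at an unadjusted p under 0.05. The 5 B56 genes, which guide PP2A to kinetochores and signalling proteins, lay between -0.08 for PPP2R5E and 0.06 for PPP2R5A. All 5 B56 genes were in the brightest class and had a median SE of 0.060.

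Neither calcineurin B gene passed in the fit without blocks. PPP3R1, the calcium-binding partner of the calcineurin catalytic subunits, was at 0.10, 0.06 and 0.02 in controls and at -0.01, -0.08 and -0.44 after SDC1 siRNA, where SDC1 siRNA 3 was lowest (-0.24, SE 0.108, adjusted p = 0.147). With the spike-in set as a block PPP3R1 was called lower (-0.31, adjusted p = 0.036). PPP3R2, its testis form, was in the dimmest class at -0.08 (adjusted p = 0.467). With the catalytic genes, 2 of 5 calcineurin genes fell (40.0%, against 15.1% of all genes). With the spike-in set as a block 3 fell, a count for which no share of all genes was taken. The 5 genes were all below 0, as were 9707 of all 19777 genes tested, and their median was -0.25. PP6 had 0 of 4 genes called by limma's test, and 0 at an unadjusted p under 0.05: its SAPS-domain subunits PPP6R1, PPP6R2 and PPP6R3 were at 0.19 (adjusted p = 0.187), -0.14 (adjusted p = 0.297) and 0.02 (adjusted p = 0.892). Without SDC1 siRNA 1 PPP6R2 was called lower (-0.24, adjusted p = 0.0453).

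The 5 RNA genes were all in the middle class and below 0, and 3 fell (60.0%, against 9.72% of all genes of that class). Of all 19777 genes tested, 9707 were below 0. PPP1R26-AS1 fell by 0.42 (SE 0.078, adjusted p = 0.00379), with one probe set at -0.75 and the other at -0.10, while the subunit gene PPP1R26 was at -0.15 (adjusted p = 0.127). PPP1R3B-DT, transcribed away from PPP1R3B, fell by 0.29 (SE 0.081, adjusted p = 0.0286), but was not called without control 1 (-0.29, adjusted p = 0.0649), control 2 (-0.22, 0.0894), SDC1 siRNA 1 (-0.30, 0.0667) or SDC1 siRNA 3 (-0.24, 0.0903). PPP3CA-DT fell by 0.25 (SE 0.063, adjusted p = 0.0185), near the -0.26 of PPP3CA, but was not called without control 2 (-0.23, adjusted p = 0.062), SDC1 siRNA 1 (-0.22, 0.0708) or SDC1 siRNA 3 (-0.23, 0.0551). PPP1R14B-AS1 (-0.02, adjusted p = 0.91) and PPP3CB-AS1 (-0.04, adjusted p = 0.802) did not pass, although PPP1R14B rose and PPP3CB fell.

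Probe sets of the same gene often disagreed. The 79 members had 191 probe sets, of which 133 entered the gene values, and a fit over all 54613 non-control probe sets called 9 of the 191 higher and 30 lower, where 19.8% of all were called. Of 54 members with at least 2 probe sets, 34 had none called, 2 (PPP1R15A and PPP2R3A) had all called and 18 were mixed. In 11 members the probe sets differed by more than 0.5 on the log2 scale. The widest gap was in PPP1R2, whose 4 probe sets read -1.52, -0.23, -0.03 and 0.12. PPP1R3B read -1.29, -0.46 and 0.16, with the first 2 called.

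PPP4R3B was the member with probe sets called in both directions. Its brightest sets read -0.31, -0.26 and -0.22, and the others 0.08, 0.21 and 1.13, the last of them called higher (adjusted p = 3.40e-04). Among genes not called, PPP6R2 had a cross-hybridising set at 0.59 (adjusted p = 0.00218), PPP2R1B a middle-class set at -0.77 (adjusted p = 2.11e-04) and a bright set at -0.28 (adjusted p = 0.0429), PPP2R3B a middle-class set at -0.63 (adjusted p = 0.00495) and PPP6C 1 of 4 bright sets at 0.42 (adjusted p = 0.00423). PPP3CC had middle-class sets at -0.52 and -0.51, both called, and PPP2R5C one at -0.33 (adjusted p = 0.0246). PPP2R2D had a middle-class set at 0.41 (adjusted p = 0.009) beside its bright set at 0.16.

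The calls of further mixed members were split as follows. PPP3CB read -0.57 (adjusted p = 8.64e-04) and -0.14 (adjusted p = 0.229). PPP3CA read -0.27 and -0.25, both called, and -0.10 in a cross-hybridising set. PPP4R3A read -0.42 and -0.36, both called, and -0.52 (adjusted p = 0.063). PPP2CB read -0.29 (adjusted p = 0.015) and, in a dim cross-hybridising set, -0.10. PPP2R3C read -0.51 (adjusted p = 0.00132), -0.15 and 0.01. PPP4R1L read -0.38 (adjusted p = 0.00855) and 4 further values from -0.32 to -0.08 that were not called. Whether these sets read different transcripts of a gene was not tested.

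**Figure D5:**
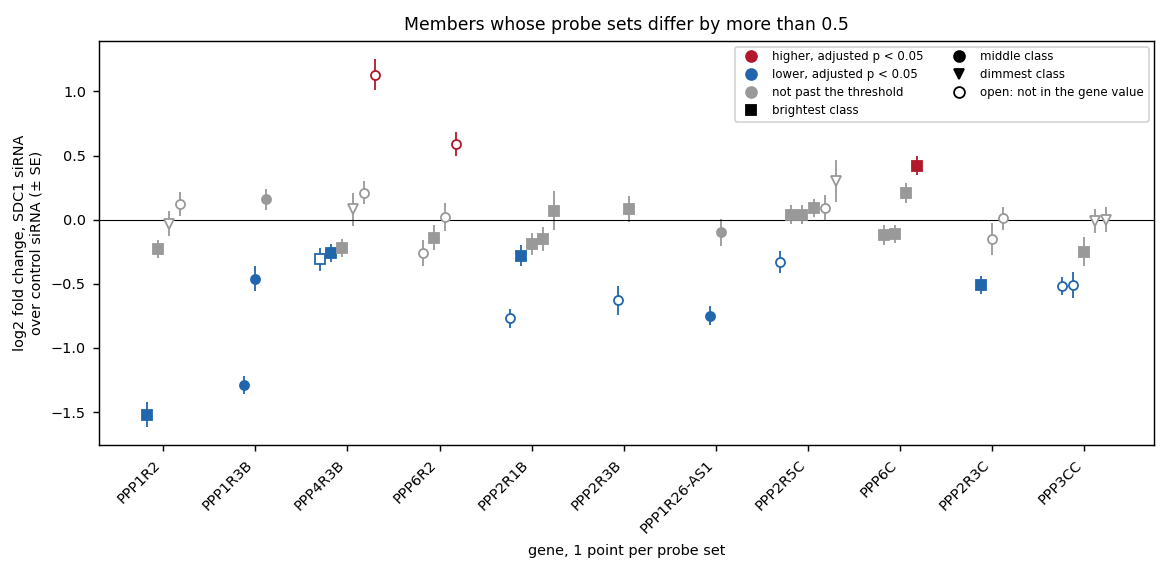
Log2 fold change, SDC1 siRNA over control siRNA, of every probe set (1 point each, ± SE) of the 11 members whose probe sets differed by more than 0.5. Red and blue mark adjusted p under 0.05 over all probe sets, the marker shape gives the brightness class, and open markers did not enter the gene value. The points of PPP1R2 span -1.52 to 0.12 and those of PPP4R3B -0.31 to 1.13.

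Genes that act on these phosphatases but carry other symbols were read from 6 lists, chosen like the family with earlier results known. Their shares stand beside 28.1% called among all genes and 40.7% in the brightest class, and all lists are short. Among 11 modulators of PP2A, all in the brightest class, 2 rose and 4 fell (54.5%, median -0.12). CIP2A, an inhibitor of PP2A, was at -0.32, -0.28 and -0.35 in controls and at 0.36, 0.28 and 0.29 after SDC1 siRNA (0.63, SE 0.057, adjusted p = 9.33e-05). Of 8 measured members of STRIPAK, the complex that joins PP2A to kinases, 0 rose and 3 fell (37.5%, median -0.12), among them PDCD10, which fell by 1.07 (SE 0.061, adjusted p = 8.74e-06). In both genes all arrays of one group lay apart from the other.

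Of 13 calcineurin regulators and NFAT genes 3 rose and 3 fell (46.2%, median 0.09), with RCAN3, a calcineurin-binding protein, at 0.64 (SE 0.086, adjusted p = 6.86e-04). RCAN1 fell (-0.51, SE 0.076, adjusted p = 0.00125), and RCAN2 was not called (0.09, adjusted p = 0.682). Of 3 ankyrin-repeat subunits of PP6 2 rose (66.7%), ANKRD44 by 1.12 (SE 0.082, adjusted p = 3.34e-05) and ANKRD52 by 0.22 (SE 0.064, adjusted p = 0.0351), while 0 of 4 PP6 genes of the PPP family were called. Of 19 other PP1 interactors 6 rose and 4 fell (52.6%, median 0.02). PHACTR2 and PHACTR1, which bind PP1 and actin, fell by 0.86 (adjusted p = 3.39e-05) and 0.67 (adjusted p = 9.30e-05). PHACTR4 of the same list rose by 0.49 (adjusted p = 4.23e-04), and PHACTR3 was not called (0.14, adjusted p = 0.364). URI1 rose by 0.65 (adjusted p = 2.21e-04). Among 17 measured phosphatases of the unrelated PPM family 5 rose and 3 fell (47.1%, median -0.04), PPM1F by 0.75 (adjusted p = 1.07e-04) upward and PPM1H by 0.69 (adjusted p = 6.26e-04) downward.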

How the data were processed

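Labelled cRNA from 6 samples was hybridised to Affymetrix arrays, 1 per sample. The deposited values are log2 expression values; RMA (robust multi-array average) is named, with no version, per the submitters' processing notes. No other step on the values is recorded in the labels or headers. Each probe set's 6 values had a median within 1e-06 of 0. This centring was read from the values, as was the base of the logarithm; it removes levels and leaves group differences unchanged.

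Names came from the platform annotation, in which 41097 of 54675 probe sets had a single gene, 1801 several and 11777 none. The 62 control probe sets were left out. The brightness class came from the numeric step of the deposited values on the arrays at or above the probe set's median. Single-gene probe sets of the brightest class that a gene reached were averaged, and cross-hybridising ones (_x_at) entered only for genes without another. The design had foreseen the probe set of highest mean, which centred values do not give. All 79 members matched the RefSeq table of GRCh38.p14, and 61 had a promoter there. A single promoter per gene was used for members, while the shares of all promoters counted every promoter.

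SDC1 siRNA was compared with control siRNA over all 19777 genes by linear models and eBayes in limma 3.58.1 under R 4.3.3, 2-sided, with no covariates and Benjamini-Hochberg adjustment. Members and lists were chosen with earlier results of these data known. Every catalytic subunit, and every regulatory member past the threshold by 1.5-fold or more, is given on every array; further called members were added. Outside the family, genes past 1.5-fold are named, at most 4 a list by lowest p. ANKRD52, RCAN1, RCAN2, PHACTR3 and PHACTR4 were chosen after their values were seen. On simulated data with these arrays' spread, the fit recovered 66 of 100 genes changed by 0.5 and 96 of 100 changed by 1 on the log2 scale. It made 6 false calls among the genes left unchanged. Far fewer genes changed there than the 5551 called here, so the adjustment was stricter there and the recovery does not carry over to these data. The number of arrays limits the precision, and the median SE was 0.075. Alternatives varied the probe sets, brightness class, dim genes, prior, normalization, blocks and arrays left out.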

Additional observations from a re-analysis of the deposited data

How the results depend on the processing

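Of the 24 members called, 14 were called with the same direction in all 13 alternatives that carry a test; the exceptions are named beside their values or below. The number that rose was 3 or 4 in each alternative and the number that fell 19 to 23 with all 6 arrays, and leaving out 1 array gave 3 to 4 that rose and 14 to 18 that fell. Averaging all probe sets of a gene kept 17 of the 21 falls. It put the catalytic median at -0.17 and the regulatory median at -0.04, and it reversed PPP4R3B to 0.10 and PPP5C to 0.09. PPP4R4 ran from -0.06 to 0.03 with 1 array left out, and reversed without SDC1 siRNA replicate 2 (0.03). The regulatory median was -0.09 without the dimmest class and -0.08 with the spike-in set as a block. Within the first spike-in set the catalytic median was -0.04 and the regulatory one -0.03, and within the second the regulatory one was -0.09. Leaving out 1 array gave catalytic medians from -0.14 to -0.09 and regulatory medians from -0.08 to -0.05. The cause of these shifts was not tested. Reading the brightness class from all 6 arrays was an alternative chosen after seeing the data.

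The replicate numbers gave no clear pairing of the arrays. Same-numbered arrays correlated at only 0.01, 0.08 and 0.10 in their deviations from the group means. Control 1 correlated best with SDC1 siRNA 2 (0.04), while control 2 and control 3 each correlated best with the same-numbered array. With the replicate block 4 members rose and 19 fell, 18 of them shared with the fit without it; PPP1R3D (adjusted p = 0.0591), PPP4R1L (0.0551) and PPP4R2 (0.0611) were not called there by limma. With 3 arrays a group, small changes can be missed, and centred values give no detection call. The members not called lay between -0.32 and 0.27.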
